A study of Mus musculus with 6 samples.

Results

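The 10 genes described here encode heat shock chaperones: Hspa1a, Hspa1b and Hspa8 (cytosolic HSP70 proteins), Hsph1 (HSP110), Hsp90aa1 (cytosolic HSP90), Hspb1 (a small heat shock protein), Hspd1 and Hspe1 (the mitochondrial chaperonin) and Dnajb1 and Dnajb4 (J-domain proteins, also called HSP40). Their probes were found by gene symbol on a mouse bead array. This gave 20 probes of 9 genes, and 1 more probe, listed under the older symbol Hsp105, was assigned to Hsph1 through its RefSeq accession. The set is therefore 21 probes of 45281 on the array, or 10 of 28891 gene and clone names that its probes carry. RNA was labelled as that of isolated luminal uterine epithelium at 3.5 days post coitum (dpc), with 3 Control arrays (A, B and C) and 3 arrays of a conditional knockout (D, E and F, here CKO), and the comparison asks what loss of the receptor changes. The extraction protocol speaks of homogenised uterine tissue, and markers of stroma and endothelium were measured, as given below.

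The CKO mice were Alk3flox/flox Pgrcre/+ females. Alk3, or Bmpr1a, is one of the receptors through which bone morphogenetic proteins signal, and its loxP sites flank exon 2, part of the code for the extracellular domain. Cre was expressed from the progesterone receptor locus, so in a uterus it acts in every cell type that uses that locus and not in the epithelium alone. The alleles of the Control mice are not spelled out in the labels. Both groups had a hybrid background of C57BL/6J and 129S5/SvEvBrd. The labels do not tell whether animals were pooled or shared between arrays, so a p-value here speaks only of the spread among 6 samples, which may be technical. Chip position (A to C against D to F) and group cannot be told apart.

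Heat shock chaperones bind unfolded or partly folded proteins, keep them from clumping and help them fold. HSP70 proteins work in cycles of ATP binding that J-domain proteins start and HSP110 proteins end, HSP90 takes over a set of clients such as kinases and steroid receptors (the progesterone and estrogen receptors among them), and small heat shock proteins hold unfolded chains without using ATP. Cells raise many of these genes through heat shock factor 1 (HSF1), which binds repeated heat shock elements near their start sites, although some members, Hspa8 above all, are made at high level without stress.

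The arrays were of similar brightness, with a median raw signal of 79.7 to 87.6 and 16620 to 17536 probes above background (detection p-value under 0.05) per array. Arrays E and D stood apart in different ways. The mean correlation with the other arrays was lowest for E, at 0.932, against 0.950 to 0.968 for the others. On D, different probes of the same gene disagreed far more often than on any other array, as described below. The brighter probe of the targeted gene, Bmpr1a, differed by -0.60 on the log2 scale (SE 0.22, limma's adjusted p 0.985). The other differed by -0.51 (SE 0.36) with overlap: D was lowest at 5.61, while E (6.88) and F (6.71) lay within the Control range (6.61 to 7.10). Whether either lies in the deleted segment is not known here, so they do not check the deletion, although 3 of 3 CKO arrays lay below Control for the brighter one. Of 8 genes listed as markers of all epithelia 7 were measured and Epcam was below background on all 6 arrays, and of 8 luminal markers 6 were measured, with Calb1 and Krt13 below background on all arrays. Of 11 stroma markers 8 were measured, with Hoxa10 and Hoxa11 below background everywhere. In bulk RNA less RNA per cell and fewer cells of a type cannot be told apart.

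The start regions of the members are shown first, because Hspe1 and Hspd1 share theirs and those of Hspa1a and Hspa1b are nearly identical. RefSeq windows of 300 bases (GRCm38.p6, 250 bases before to 50 after an annotated start) were found for 8 of the 10 genes, all but Hspa8 and Hsp90aa1, with 12 windows in all. A heat shock element was searched on both strands as 3 adjoining units of 5 bases in alternating orientation, NGAANNTTCNNGAAN or NTTCNNGAANNTTCN. It was found in 4 windows of 3 members (Hspd1, Hspe1 and Hsph1, whose 2 windows overlap and hold the same match), and in 0.597% of all 32851 windows of that length. The shorter form with 2 units, NGAANNTTCN or NTTCNNGAAN, which lies inside every longer match, was found in 8 windows of 7 members and in 15% of all windows. A match is a description of letters and does not show binding.

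Hspe1 and Hspd1 are neighbours on chromosome 1 with no gene between them, and they are read in opposite directions from 1 region. The Hspe1 window, at chr1:55087898-55088197 on the plus strand, shares 285 bases with an Hspd1 window at chr1:55087883-55088182 on the minus strand, so the capitals below, which mark 2 overlapping matches of 3 units, belong to both genes. Hsph1, at chr5:149636266-149636565 on the minus strand, has its match just after the start. The windows of Hspa1a (chr17:34972107-34972406, minus strand) and Hspa1b (chr17:34959189-34959488, minus strand), also neighbours with no gene between them, differ at 4 of 300 bases; their capitals mark the match of 2 units. All are written 5′ to 3′.
Hspe1: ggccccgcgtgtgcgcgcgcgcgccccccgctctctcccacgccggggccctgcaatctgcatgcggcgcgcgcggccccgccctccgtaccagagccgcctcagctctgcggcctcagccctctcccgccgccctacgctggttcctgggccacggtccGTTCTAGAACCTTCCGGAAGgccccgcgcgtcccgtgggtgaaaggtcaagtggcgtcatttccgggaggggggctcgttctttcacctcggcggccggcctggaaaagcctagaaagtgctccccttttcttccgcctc
Hsph1: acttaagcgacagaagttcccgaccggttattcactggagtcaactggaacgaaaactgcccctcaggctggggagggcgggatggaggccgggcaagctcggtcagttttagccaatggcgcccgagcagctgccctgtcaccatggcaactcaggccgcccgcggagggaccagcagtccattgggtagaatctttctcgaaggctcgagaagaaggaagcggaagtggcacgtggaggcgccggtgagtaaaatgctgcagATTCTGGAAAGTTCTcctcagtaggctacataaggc
Hspa1a: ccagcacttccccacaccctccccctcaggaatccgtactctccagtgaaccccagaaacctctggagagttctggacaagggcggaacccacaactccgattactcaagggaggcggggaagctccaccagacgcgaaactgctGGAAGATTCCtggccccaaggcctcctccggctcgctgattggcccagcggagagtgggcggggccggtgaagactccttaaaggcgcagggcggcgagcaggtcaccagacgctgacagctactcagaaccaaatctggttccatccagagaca
Hspa1b: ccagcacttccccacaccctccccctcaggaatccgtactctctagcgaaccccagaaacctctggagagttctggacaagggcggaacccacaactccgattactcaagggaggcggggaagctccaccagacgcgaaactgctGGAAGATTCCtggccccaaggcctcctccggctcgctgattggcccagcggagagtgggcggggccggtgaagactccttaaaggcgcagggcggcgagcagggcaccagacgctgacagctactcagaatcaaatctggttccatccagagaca

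**Figure D1:**
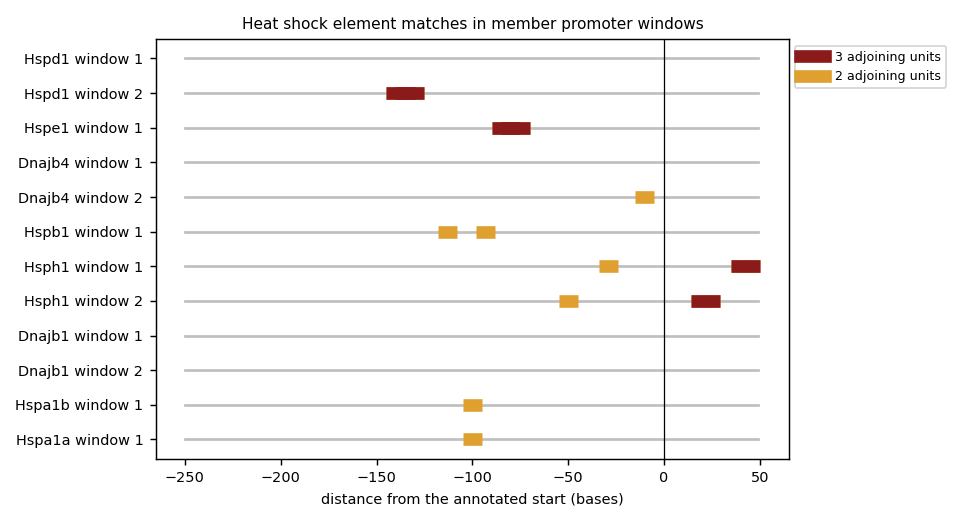
Positions of heat shock element matches in the 12 start windows of 8 members, with the distance from the annotated start in bases on the horizontal axis and 1 line per window. Dark bars are matches of 3 units and light bars matches of 2 units; only windows of Hspd1, Hspe1 and Hsph1 hold dark bars.

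Of the 21 probes, 16 were above background on at least 3 of 6 arrays and were tested, which covered all 10 genes; 15 were above background on all 6. Signals are given as normalised log2 values, a difference is the CKO mean minus the Control mean, and every probe was compared only with itself across arrays. Of the 16 probes, 8 had a higher mean in CKO and 8 a lower mean, where 52.5% of all 17291 tested probes had a lower one. The median difference over the 16 was -0.02, as it was over all probes, but it depended on the arrays and probes used: it was 0.15 without D, -0.18 without B, -0.23 without E, and 0.10 with 1 probe a gene (6 genes higher, 4 lower; -0.01 over all genes). By limma with adjustment over all tested probes 0 of the 16 passed (adjusted p 0.985 to 0.993), against 0.0174% of all probes called higher and 0% called lower. At an unadjusted p under 0.05 only 1 member probe, of Dnajb4, was found, and it was lower in CKO; over all probes 2.57% were higher and 1.99% lower at that level. The groups did not overlap for 1 probe with CKO higher (Hspe1) and 1 with CKO lower (Dnajb4), against 5.4% and 4.94% of all probes. These counts are near the background in both directions. The Dnajb4 probe passed the filter through the Control group, where it is high, so its place in these counts is not independent of the filter. The count at the unadjusted level was 2 without D (with Hspd1 probe ILMN_2639036, higher), without E (with Hspe1, higher) or without F (with Hspa1b probe ILMN_2498263, lower), where 6.26%, 4.5% and 5.72% of all probes were found in either direction. With Hspe1 (higher) it was also 2 under another background correction (4.36% of all probes), with none (4.34%) and with no filter (4.68%). It was 3 with array weights (12.7% of all probes) and 0 under a stricter filter (4.01%), which Dnajb4 does not pass.

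**Figure D2:**
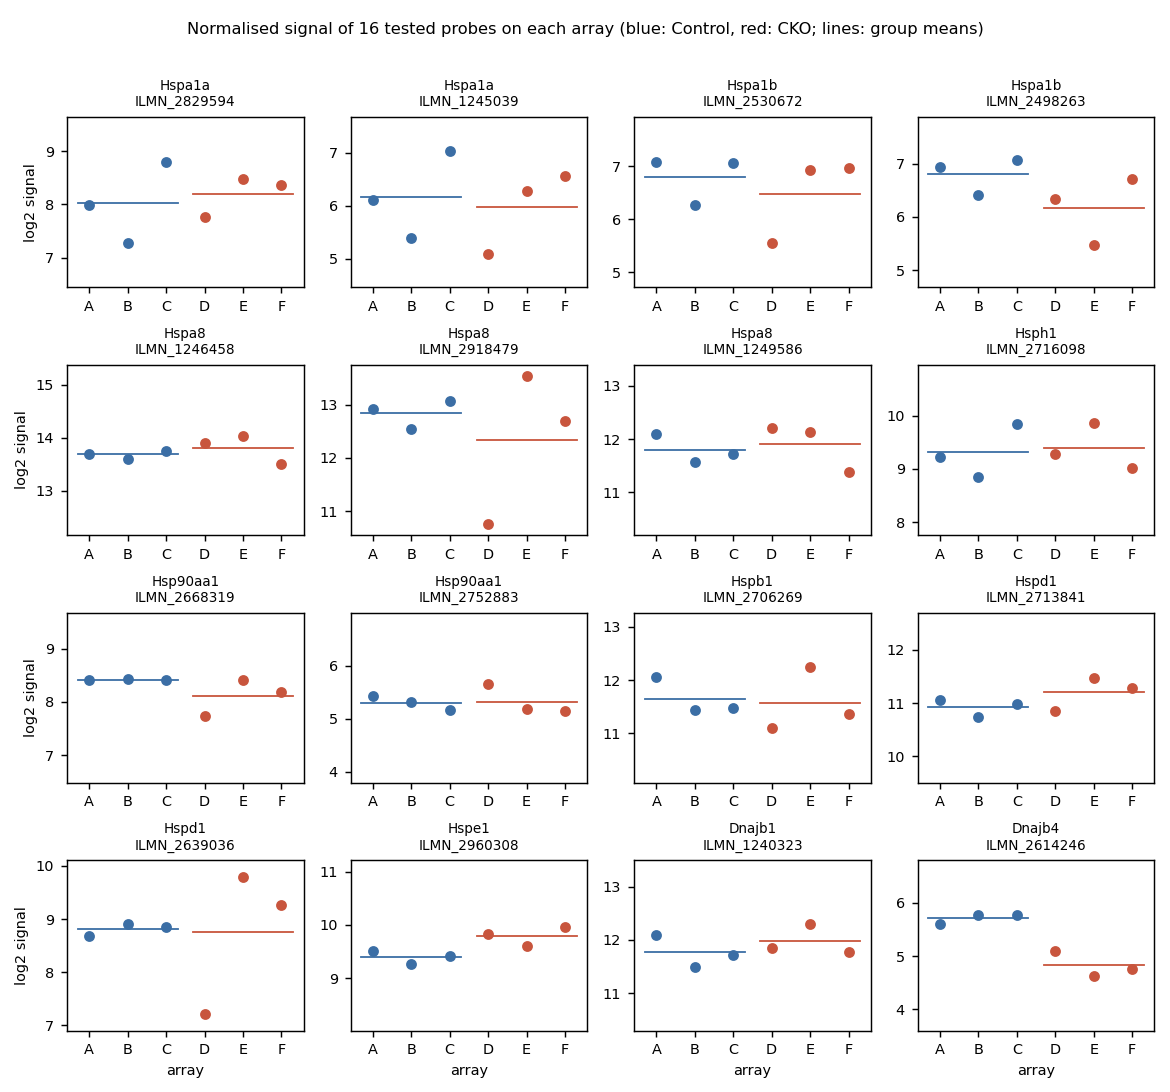
Normalised log2 signal (vertical axis, of the same length in each panel) of the 16 tested probes on arrays A to F, with Control in blue, CKO in red and lines at the group means. Groups lie apart for Hspe1 and Dnajb4 only, and array D is far below the other arrays for probe ILMN_2918479 of Hspa8 and probe ILMN_2639036 of Hspd1.

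Hspa8, the HSP70 protein made in unstressed cells, had 3 probes above background on all arrays. Probe ILMN_1246458, its brightest, read 13.69, 13.61 and 13.76 in Control (A to C in this order) and 13.91, 14.03 and 13.51 in CKO (D to F). The CKO values lay on both sides of Control, and the difference was 0.13 (SE 0.20, adjusted p 0.985), with a 95% confidence interval of -0.35 to 0.60. Probe ILMN_1249586 read 12.09, 11.56 and 11.72 in Control and 12.20, 12.14 and 11.39 in CKO, again with overlap and a difference of 0.12 (SE 0.28). Probe ILMN_2918479 read 12.93, 12.55 and 13.08 in Control and 10.75, 13.55 and 12.70 in CKO. Here D was the lowest array by a wide gap and E the highest, and the difference of -0.52 (SE 0.66) turned to 0.27 without D. Its raw signal on D was 1647.6 with a standard error of 52.5 over 36 beads, where the other arrays had 6481.1 to 12116.0.

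Hspa1a and Hspa1b encode the stress-inducible HSP70 in neighbouring, nearly identical copies. Probe sequences were not used here, so signal from one copy may be read by a probe named for the other, and the values of these genes are uncertain to that extent. The brightest Hspa1a probe, ILMN_2829594, read 7.99, 7.28 and 8.80 in Control and 7.77, 8.47 and 8.37 in CKO. The 3 CKO arrays lay inside the Control range, which B and C set, and the difference was 0.18 (SE 0.41), or -0.19 without B. A second Hspa1a probe, ILMN_1245039, differed by -0.20 (SE 0.52), and by 0.24 without D or 0.22 without C. Another, ILMN_1225328, was above background on 0 Control arrays and 2 CKO arrays, too few to be tested. Its group means of 4.86 in Control and 5.15 in CKO include signals not above background and give no measured fold.

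For Hspa1b, probe ILMN_2530672 read 7.08, 6.26 and 7.06 in Control and 5.56, 6.92 and 6.97 in CKO. Array D was the lowest and the others overlapped; the difference of -0.32 (SE 0.44) was 0.14 without D. Probe ILMN_2498263 of the same gene read 6.94, 6.42 and 7.07 in Control and 6.33, 5.48 and 6.71 in CKO, with E lowest. Its difference was -0.64 (SE 0.35, interval -1.48 to 0.20) and -0.29 without E. The 2 probes thus had different CKO arrays as the lowest.

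Hsph1 encodes an HSP110 protein that releases ADP from HSP70. Its single probe read 9.23, 8.85 and 9.85 in Control and 9.28, 9.86 and 9.01 in CKO, a difference of 0.07 (SE 0.33, interval -0.72 to 0.87). High and low arrays were found in both groups. Dnajb1, the J-domain partner of HSP70 that is induced by heat, read 12.10, 11.49 and 11.72 in Control and 11.84, 12.30 and 11.78 in CKO. Its groups overlapped, with a difference of 0.20 (SE 0.24, interval -0.37 to 0.78) that was 0.04 to 0.37 with single arrays left out.

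Dnajb4, another J-domain partner of HSP70, had a dim signal and, with the background correction used, the largest difference among the tested member probes. With the other correction or none, Hspa8 probe ILMN_2918479 had a larger one (-0.51 in both). Probe ILMN_2614246 read 5.61, 5.77 and 5.77 on the Control arrays, all above background, and 5.09, 4.63 and 4.75 on the CKO arrays, of which only D was above background. No CKO array reached the Control range. The difference in measured means was -0.90 (SE 0.19), but on E and F it is drawn against signals not above background, so its size, its SE and the p-values that follow describe the fit and are not a measured fold. Its unadjusted p from limma was 0.00236 and its adjusted p 0.985, so it did not pass. Over the alternatives and with single arrays left out its adjusted p ran from 0.109 to 1, and the difference was -0.39 with no background correction and -0.44 with another one. Probe ILMN_2619611 was above background on Control array A alone and was not tested. Its group means of 5.13 in Control and 4.73 in CKO rest mostly on signals not above background. They give no measured fold and no order of the groups. Probe ILMN_2691452 was below background on all arrays.

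Hsp90aa1, the stress-inducible cytosolic HSP90, was measured by probe ILMN_2668319 at 8.41, 8.43 and 8.41 in Control and 7.73, 8.42 and 8.19 in CKO. The Control arrays were nearly equal (SD 0.01), E lay among them, and D and F were lower, which gave a difference of -0.30 (SE 0.22, interval -0.82 to 0.22) and -0.11 without D. A dimmer probe, ILMN_2752883, differed by 0.02 (SE 0.21) and was highest on D. The last, ILMN_2662557, was below background on all arrays. Hspb1, a small heat shock protein known as HSP25 in mice, read 12.06, 11.43 and 11.47 in Control and 11.10, 12.24 and 11.37 in CKO. Its highest and its lowest array were both CKO, and the difference of -0.09 (SE 0.34) changed sign without A, D or F (-0.42 to 0.15 over the 6 arrays left out in turn). Its other probe was below background on all arrays.

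Hspe1 and Hspd1 encode the lid and the barrel of the chaperonin that folds proteins in the mitochondrial matrix. Hspe1 read 9.51, 9.27 and 9.42 in Control and 9.83, 9.60 and 9.96 in CKO. The groups did not overlap, with CKO higher, and the difference was 0.39 (SE 0.18, interval -0.04 to 0.83), a fold of 1.31 with an exact two-sided permutation p of 0.1, the smallest that 3 against 3 arrays allow, and an adjusted p of 0.985. It was 0.31 to 0.50 with single arrays left out and its adjusted p never went below 0.210. The brighter Hspd1 probe, ILMN_2713841, read 11.06, 10.73 and 10.98 in Control and 10.85, 11.47 and 11.29 in CKO. E and F lay above Control and D within it, with a difference of 0.28 (SE 0.22, interval -0.25 to 0.81) that was 0.15 to 0.46 with single arrays left out. The other probe, ILMN_2639036, read 8.68, 8.91 and 8.86 in Control and 7.21, 9.80 and 9.27 in CKO. It had E and F above all Control arrays and D far below them, and its difference of -0.06 (SE 0.63) became 0.72 without D.

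**Figure D3:**
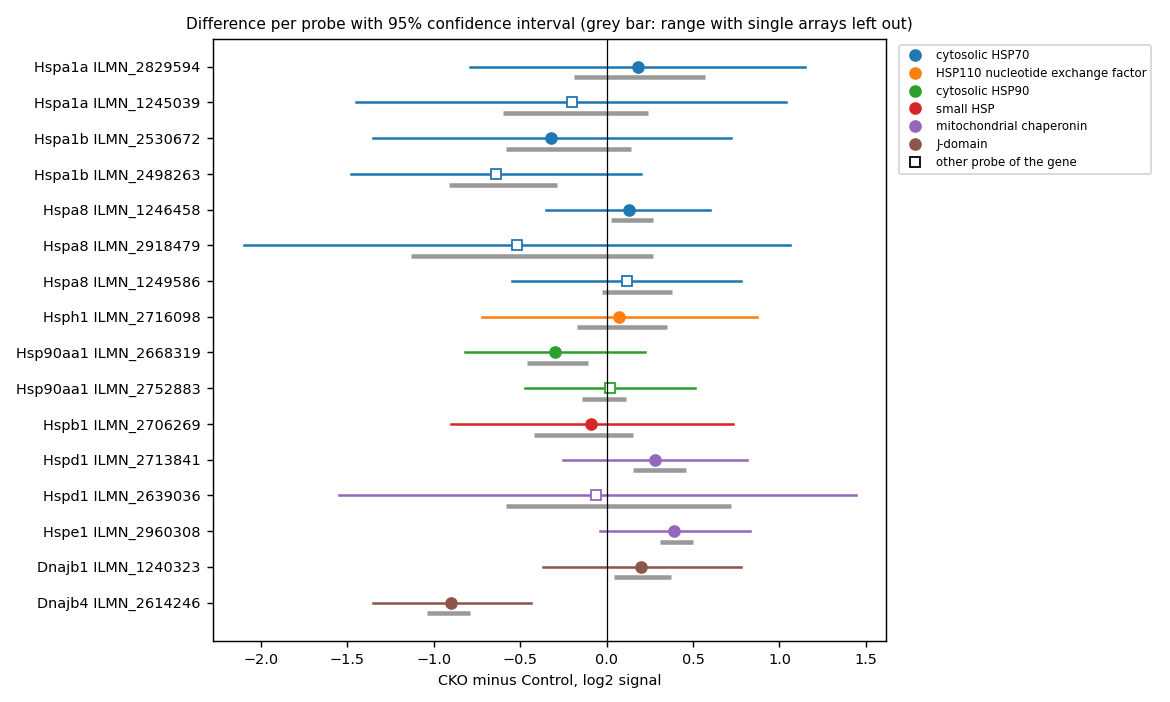
Difference CKO minus Control in log2 signal for each of the 16 tested probes, with its 95% confidence interval as a coloured line (colour: protein class; filled circle: the gene's brightest probe; open square: another probe) and, in grey, the range over the 6 fits that leave out 1 array. The intervals are not adjusted for the number of probes. That of Dnajb4 lies below 0 but rests on a probe that was above background on only 1 of 3 CKO arrays, and the others include 0.

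Probes named for the same gene were set against each other on each array. Probe sequences were not used, so whether they read the same transcripts is not known here. The gap between Hspa8 probes ILMN_2918479 and ILMN_1246458 was -3.16 on D and -1.06 to -0.47 on the other arrays, and that between ILMN_1249586 and ILMN_2918479 was 1.45 on D and -1.41 to -0.84 elsewhere. ILMN_1249586 and ILMN_1246458, in contrast, were -1.71 apart on D, inside the range of the others (-2.12 to -1.61), so of the 3 Hspa8 probes ILMN_2918479 was the one out of line. The gap between the Hspd1 probes was -3.64 on D and -2.38 to -1.67 elsewhere, that of the Hspa1a probes -2.68 on D and -2.20 to -1.77 elsewhere, and that of the Hsp90aa1 probes -2.09 on D and -3.25 to -2.98 elsewhere. In each of these 3 pairs D lay outside the other arrays, with the dimmer probe relatively lower in Hspd1 and Hspa1a and relatively higher in Hsp90aa1. The dimmer Hspa1a probe on D (detection p 0.048) and the dimmer Hsp90aa1 probe on all arrays (detection p 0.004 to 0.046) were close to background. Their gaps are limited by that. For Hspa1b both D (0.77) and E (-1.44) lay outside the other 4 arrays (-0.26 to 0.15).

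The count was then taken over the whole array. Over 7409 pairs of tested probes sharing a gene, D lay over 1 log2 unit outside the other arrays' range in 493 pairs (6.65%). E did so in 80 pairs and the remaining arrays in 0 to 25. In 378 of the 493 pairs the dimmer probe was lower on D relative to the brighter one. The gap alone does not tell which of the probes was out of line. This check was chosen after the values were seen. Its cause was not tested. With D left out, 11 of the 16 member probes had a higher mean in CKO and 5 a lower one, against 8 and 8 with all arrays, and 0 passed. Without E, and likewise without Control array B, the counts were 6 higher and 10 lower, and 0 passed as well. The share of all probes with a lower mean was 52.0% without D, 49.7% without E and 51.9% without B.

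**Figure D4:**
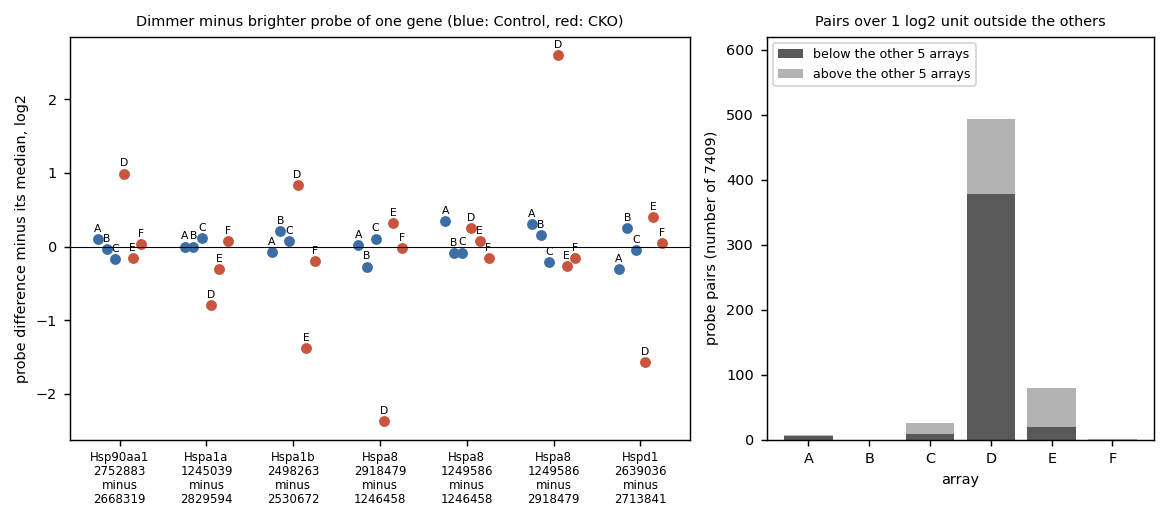
Left, log2 gap between the probes of a member gene on each array, minus the median of its 6 values, with arrays lettered and Control in blue and CKO in red. Right, the number of probe pairs of 7409 that each array puts over 1 log2 unit outside the other 5 arrays, 493 for D and 0 to 80 for the others.

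The median spread within groups was an SD of 0.42 for the 16 probes and 0.31 for all tested probes, against a median absolute difference between groups of 0.20 and 0.19. Averaged over the brightest probe of each gene, the deviation from the mean of the 6 arrays was 0.24 on E, 0.17 on C, 0.12 on A, -0.03 on F, -0.24 on B and -0.26 on D, so the order of arrays mixed the groups. By its brightest probe, E was the highest array for 5 of the 10 genes (Hspa8, Hsph1, Hspb1, Hspd1 and Dnajb1), and B the lowest for 5 (Hspa1a, Hsph1, Hspd1, Hspe1 and Dnajb1). Counted over probes, E was highest for 43.8% of the 16 and for 23.5% of all tested probes, B lowest for 31.2% and 8.35%, and D lowest for 37.5% and 21.7%. Of the marker lists, the mean deviation on E was 1.29 for the 5 of 7 endothelium genes measured (-0.76 to 0.13 on the other arrays) and 1.30 for 3 of 6 gland genes (-0.75 to 0.30), and on D it was 1.12 for the 8 stroma genes (-1.01 to 0.68). Other arrays stood apart in other lists: the 2 of 6 smooth muscle genes measured were at 1.20 on A and -1.06 on F, and 3 of 4 erythroid genes at 1.02 on F. The part of other cells in the chaperone values was not tested.

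Pairs of members were compared over the 6 arrays, 4 pairs in all, with exact permutation tests adjusted over the pairs. The members of a pair work together, except Hspa1a and Hspa1b, which are nearly identical copies. Hspa8 and Hsph1 gave Pearson r = 0.73 (p = 0.101, adjusted 0.239) and Spearman rho = 0.89 (p = 0.0333, adjusted 0.133), and r = 0.45 without E and F, the arrays farthest from the median of Hspa8. Hspa1a and Hspa1b gave r = 0.66 (p = 0.158, adjusted 0.239) and rho = 0.54 (p = 0.297, adjusted 0.297), and r = 0.72 without B and C. As stated above, a probe named for one of these copies may read signal from the other. Hspa8 and Dnajb1 gave r = 0.63 (p = 0.179, adjusted 0.239) and rho = 0.60 (p = 0.242, adjusted 0.297), and r = 0.33 without E and F. Hspd1 and Hspe1, which share their start region, gave r = 0.45 (p = 0.371, adjusted 0.371) and rho = 0.54 (p = 0.297, adjusted 0.297), and r = 0.39 without B and E. No pair passed after adjustment.

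Among 3696 other genes with a range over 1 log2 unit, 10 followed the members' mean deviation with r above 0.9 over the 6 arrays. The 6 highest were Tceal9 (r = 0.958), Cd68, a lysosomal protein of macrophages (0.957), Bicdl2 (0.956), Rdm1 (0.940), As3mt, an arsenic methyltransferase (0.935), and Trp53inp1, a target of p53 (0.929). Each was, by its brightest probe, highest on E or C and lowest on D or B, with overlapping groups and differences of -0.29 (As3mt) to 0.02 (Bicdl2). The other Trp53inp1 probe, above background on all arrays, was highest on A and lowest on F. It differed by -0.34 (SE 0.26) with overlap. These are descriptions over 6 points that share the arrays. Bicdl2 was above background on 2 Control and 2 CKO arrays, and As3mt on 2 Control arrays and 1 CKO array. Their values thus rest partly on signals not above background.

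HSF1, the main activator of heat shock genes, and its relative HSF2 were measured as well. Hsf1 read 10.90, 10.79 and 10.79 in Control and 10.93, 11.16 and 10.84 in CKO, with overlap and a difference of 0.15 (SE 0.17). Hsf2 differed by -0.60 (SE 0.28) by its brighter probe, with D within the Control range, and by -0.04 (SE 0.29) by the other. Hsbp1, which binds HSF1 and holds it back, differed by -0.14 (SE 0.24). None of these passed (adjusted p 0.985 to 0.990). Hsf4, Hsf5 and Hsf2bp were below background on all arrays.

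Other genes of the chaperone system were taken from lists, with 0 genes called in either direction in any of them, where 2 of 11940 genes were called higher and 0 lower. Unadjusted p-values under 0.05 were found for 314 of these genes as higher and 233 as lower, and the median difference was -0.01. Besides Fos, Jun, Egr1 and Atf3, the genes named from a list were up to 3 of smallest p in it. Small p-values and groups that lie apart among them follow partly from that choice. Of all tested probes 5.4% had no overlap with CKO higher and 4.94% with CKO lower. A list of other genes that answer to heat or cold had 16 of 19 measured, 7 with a higher and 9 with a lower mean, and a median of -0.01. On it, Cirbp, an RNA-binding protein made more in the cold, lay at -0.56 (SE 0.28). Rbm3, another, passed the filter through CKO, with 1 Control and 3 CKO arrays above background; its fitted difference was 0.70 (SE 0.27), or 0.31 with no background correction, and is no measured fold. A second Rbm3 probe was below background on all arrays. Hspb8, a small heat shock protein that works with Bag3, read 12.68, 12.56 and 12.83 in Control and 12.27, 11.22 and 11.97 in CKO. Its groups did not overlap, its difference was -0.87 (SE 0.29, unadjusted p 0.0204, adjusted p 0.985), and the other Hspb8 probe differed by -0.65 with overlap.

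Among other small heat shock proteins 3 of 10 were measured, with Hspb6 at 0.30 (SE 0.47) and Cryab at 0.20 (SE 0.29) beside Hspb8. Other HSP70 and HSP110 genes had 4 of 10 measured. Hspa2 lay at -0.39 (SE 0.17) with no overlap and its other probe at -0.33, also with no overlap, Hspa4 at -0.10 (SE 0.22) and Hyou1, the HSP110 of the endoplasmic reticulum, at 0.54 (SE 0.27) with overlap. None of the other HSP90 genes passed. Hsp90ab1, the constitutive cytosolic form, differed by 0.09 (SE 0.20) by its brightest probe and by -0.23 and -0.19 by the others. The reticulum form Hsp90b1 differed by 0.05 (SE 0.35) and mitochondrial Trap1 by -0.05 (SE 0.18).

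J-domain genes beyond the members had 19 of 25 measured, 15 with a higher and 4 with a lower mean and a median of 0.09. Over all 11940 genes, 5772 had a higher mean. The mean deviation of the list was 0.08, 0.03 and 0.04 on arrays D to F. On arrays A to C it was -0.09, -0.01 and -0.04. Dnajc2, a ribosome-bound J protein, read 8.57, 8.52 and 8.82 in Control and 8.99, 9.34 and 9.01 in CKO, with a difference of 0.48 (SE 0.19, unadjusted p 0.0407), and a second probe differed by 0.11. Dnajb11 of the endoplasmic reticulum lay at 0.29 (SE 0.16) with no overlap. Mitochondrial Dnaja3 lay at 0.31 (SE 0.21) by its brightest probe and at -0.0 (SE 0.18) by the other tested one. Co-chaperones of HSP70 and HSP90 had all 24 measured, 12 higher and 12 lower with a median of -0.01. Unc45a, a myosin and HSP90 co-chaperone, lay at 0.40 (SE 0.18) and 0.65 (SE 0.23) by its 2 probes, each with no overlap, while St13, which binds HSP70, lay at -0.47 (SE 0.22) and Pih1d1 at -0.29 (SE 0.17).

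The cytosolic chaperonin TRiC and prefoldin had 13 of 15 measured, 9 higher and 4 lower with a median of 0.05. By their brightest probes Cct3 lay at 0.31 (SE 0.23), Cct6a at 0.26 (SE 0.24) and Pfdn5 at -0.23 (SE 0.17). Their other tested probes lay at 0.03 and 0.28 (Cct3), 0.13 (Cct6a) and -0.17 (Pfdn5). Mitochondrial folding and protease genes, the nearest relatives in place of Hspd1 and Hspe1, had 11 of 12 measured, 5 higher and 6 lower with a median of -0.02. Grpel2, which resets mitochondrial HSP70, lay at 0.46 (SE 0.30). The protease Afg3l2 lay at 0.27 (SE 0.19) by its brightest probe and at 0.01 (SE 0.4) by the other tested one. Chaperones and stress genes of the endoplasmic reticulum had 14 of 17 with a higher mean, against 5772 of all 11940 genes, and a median of 0.18. Their mean deviation was 0.24 on E, -0.03 on D and -0.02 on F, and -0.14, 0.03 and -0.08 on the Control arrays, so D and F lay within the Control range. Ddit3 lay at -0.47 (SE 0.25) with overlap by its brighter probe and at -0.78 (SE 0.33) with no overlap by the other. Immediate early genes, which rise quickly when cells are stimulated or tissue is handled, had 14 of 18 with a higher mean and a median of 0.29: Atf3 lay at 0.96 (SE 0.27), Egr3 at 0.97 (SE 0.34) and Zfp36 at 0.46 (SE 0.16), each with no overlap, but Egr1 at 0.25 (SE 0.19), Fos at 0.17 (SE 0.21) and Jun at -0.04 (SE 0.18) with overlap. Their mean deviation was 0.16, 0.35 and 0.03 on arrays D to F and -0.31 to -0.10 on the Control arrays.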

How the data were processed

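Total RNA from 3 Control and 3 CKO samples was measured on 1 Illumina mouse bead chip. Per the file headers, the authors deposited, for each array, bead-averaged intensity, its standard error, the number of beads and a detection p-value per probe, with no background subtraction and no scaling between arrays. The authors also deposited a processed intensity table, which by its values is linear, background-subtracted and quantile-normalised (median 6.4 on each array). Neither the software nor the genome build is named in the sources used here.

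Here the raw signals went through neqc (normexp with controls inferred from the detection p-values, offset 16, quantile normalisation, log2) in limma 3.58.1 and R 4.3.3. The offset shrinks differences of dim probes. Probes above background (detection p under 0.05) on at least 3 of 6 arrays were tested one by one by two-sided moderated tests (lmFit, eBayes), adjusted after Benjamini and Hochberg over all 17291 at a threshold of 0.05. A gene stands by its probe with the highest mean signal. For a probe below background on a whole group no fold is given. Names came by accession (29370 probes), symbol (3686) or synonym (3267) from a RefSeq table of GRCm38.p6, and 8958 kept the file's name. The fit was checked on simulated data.

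Members and lists were chosen with earlier results of these data known. Named were all members, Bmpr1a, Hsf1, Hsf2, Fos, Jun, Egr1, Atf3, up to 3 genes of smallest p in each list and the 6 genes most like the members. The other settings were 2 further background corrections, 2 normalisations, the deposited values, 2 filters, 2 ways of joining probes, robust fitting with a variance trend, array weights and each array left out. For the deposited values, those below 0 were set to 0 and 16 was added before log2. The number of arrays limits the precision.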

Additional observations from a re-analysis of the deposited data

How the results depend on the processing

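All settings were planned. Under the 17 alternatives 0 member probes passed, and the lowest adjusted p of any was 0.109 (Dnajb4 with array weights). Over all probes, 0 were called lower under every alternative; 3 were called higher in the setting reported (Gin1, Cops8 and Mak16), 6 with array weights, 0 with the strict filter (detection p under 0.01 on all 6 arrays) and 0 to 2 with any array left out. Of the 16 member probes 6 kept their sign under each alternative that gave them a value (Dnajb4 fell to the strict filter, and Hspa1b ILMN_2498263 has no value where 1 value stands for a gene). Array weights turned Hspa1a ILMN_1245039 to 0.66, Hspa1b ILMN_2530672 to 0.33, Hspa8 ILMN_1246458 to -0.0536, Hspa8 ILMN_1249586 to -0.13, Hsp90aa1 ILMN_2752883 to -0.12 and Hspd1 ILMN_2639036 to 0.26 (0.0041 with no background correction). Without a change of sign they moved Hspa1a ILMN_2829594 from 0.18 to 0.72, Hspa1b ILMN_2498263 from -0.64 to -0.0245 and Hspa8 ILMN_2918479 from -0.52 to -0.0922. They also turned Cd68 to 0.0886, Hsp90ab1 to -0.0212, Hspa4 to 0.056, Jun to 0.15, Rdm1 to 0.11 and Tceal9 to 0.15. The mean of a gene's probes turned Hspa1a to -0.0132, Hspa8 to -0.0924 and Hsp90ab1 to -0.11.

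With single arrays left out, the members that changed sign ran from -0.19 to 0.57 (Hspa1a ILMN_2829594), -0.60 to 0.24 (Hspa1a ILMN_1245039), -0.58 to 0.14 (Hspa1b ILMN_2530672), -1.13 to 0.27 (Hspa8 ILMN_2918479), -0.0281 to 0.38 (Hspa8 ILMN_1249586), -0.17 to 0.35 (Hsph1), -0.14 to 0.11 (Hsp90aa1 ILMN_2752883), -0.42 to 0.15 (Hspb1) and -0.58 to 0.72 (Hspd1 ILMN_2639036). The others that did were Bicdl2 (-0.27 to 0.22), Cd68 (-0.43 to 0.25), Hsbp1 (-0.30 to 0.0399), Hsp90b1 (-0.17 to 0.40), Hspa4 (-0.24 to 0.0721), Hspb6 (-0.17 to 0.72), Jun (-0.15 to 0.0622), Rdm1 (-0.55 to 0.37), Tceal9 (-0.33 to 0.27), Trap1 (-0.12 to 0.0598) and Trp53inp1 (-0.40 to 0.14). No changed sign belonged to a called probe. The cause was not tested. Dnajb4 is limited by signal over background.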

Other observations

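Some chaperone genes outside the set showed on array D the same split between probes as Hspa8 and Hspd1; they were picked after their values were seen. The brightest Hsp90ab1 probe read 13.49 on D, level with C and E, while the other 2 were lowest on D, at 9.53 (10.36 to 11.29 on the other arrays) and 9.10 (9.79 to 10.62). For Cct3, a subunit of the cytosolic chaperonin, the brightest probe read 10.86 on D and 10.54 to 11.44 elsewhere, and the next read 8.56 on D and 9.32 to 10.42 elsewhere. The cause was not tested.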
